A study of Mus musculus with 2 samples.

Results

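The genes described here are 36 genes of oxidative defence, chosen by symbol from the 35602 gene symbols of the count table: the metallothioneins, the glutathione and thioredoxin systems, superoxide dismutases and catalase, and known targets of the transcription factor NRF2. All 36 were present, and all 36 passed the minimum of 20 reads over both libraries that 18687 symbols passed. Breast tumours from mice that had acupuncture as well as a PD-1 inhibitor, injected into the peritoneum, were set against breast tumours from mice that had the injection alone, so both groups carry the inhibitor. Strain, age, tumour line, acupuncture points and the number of animals behind a library: none is given in the sources used here. Messenger RNA was sequenced in 1 library per group, so differences between these 2 libraries have no replicate check and every interval below covers counting error only.

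NRF2, encoded by Nfe2l2, is held in the cytoplasm and sent for degradation by KEAP1 until oxidants or electrophiles modify cysteines of KEAP1. Freed NRF2 then binds antioxidant response elements with small MAF proteins and switches on enzymes that make glutathione, recycle thioredoxin, conjugate electrophiles and supply NADPH. Metallothioneins are small cysteine-rich proteins that bind zinc and copper and are switched on by the metal-sensing factor MTF1, by glucocorticoids and by hypoxia. Haem oxygenase 1, Hmox1, is an NRF2 target that the repressor BACH1 also controls, and it is strongly made by macrophages that take up red blood cells.

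The acupuncture library held 60752043 counts and its counterpart without acupuncture 105728292. Levels are counts per 1000000 (CPM) of library sizes scaled by the trimmed mean of M-values (TMM). Each ratio divides the acupuncture level by that of the PD-1 inhibitor alone and carries an exact 95% interval. To be listed as higher or lower, a gene needed a difference of 2-fold or more and an interval that left out 1. Of all genes tested, 9.21% were listed as higher and 4.9% as lower, and the median log2 ratio was 0.00. The 15 epithelial markers were all detected in the tissue, with summed levels of 3187 CPM with acupuncture and 4651 CPM with the PD-1 inhibitor alone.

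Of the 36 members, 3 were listed as lower with acupuncture, none as higher, and 33 lay between. Those 3 were Hmox1 and both metallothioneins, Mt1 and Mt2. The share of members listed as lower, 8.33%, compares with 4.9% of all genes. The share listed as higher, 0%, compares with 9.21%. Few abundant genes passed the limit at all: among the 12078 genes at or above the mean level of Nqo1, the least abundant member, 4.11% were listed as higher and 1.83% as lower. The members' median log2 ratio was -0.10 (range over the 36 genes -2.04 to 0.89), beside 0.00 for all genes. Without Hmox1, Mt1 and Mt2 the median was -0.03, and the ratios of the other 33 members ran between 0.685 for Prdx5 and 1.86 for Txnip. Together the members took 0.577% of counts with acupuncture (exact binomial 0.575 to 0.579) and 0.636% with the PD-1 inhibitor alone (0.634 to 0.637). Leaving out those 3 genes, the shares were 0.555% with acupuncture and 0.568% with the PD-1 inhibitor alone.

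**Figure D1:**
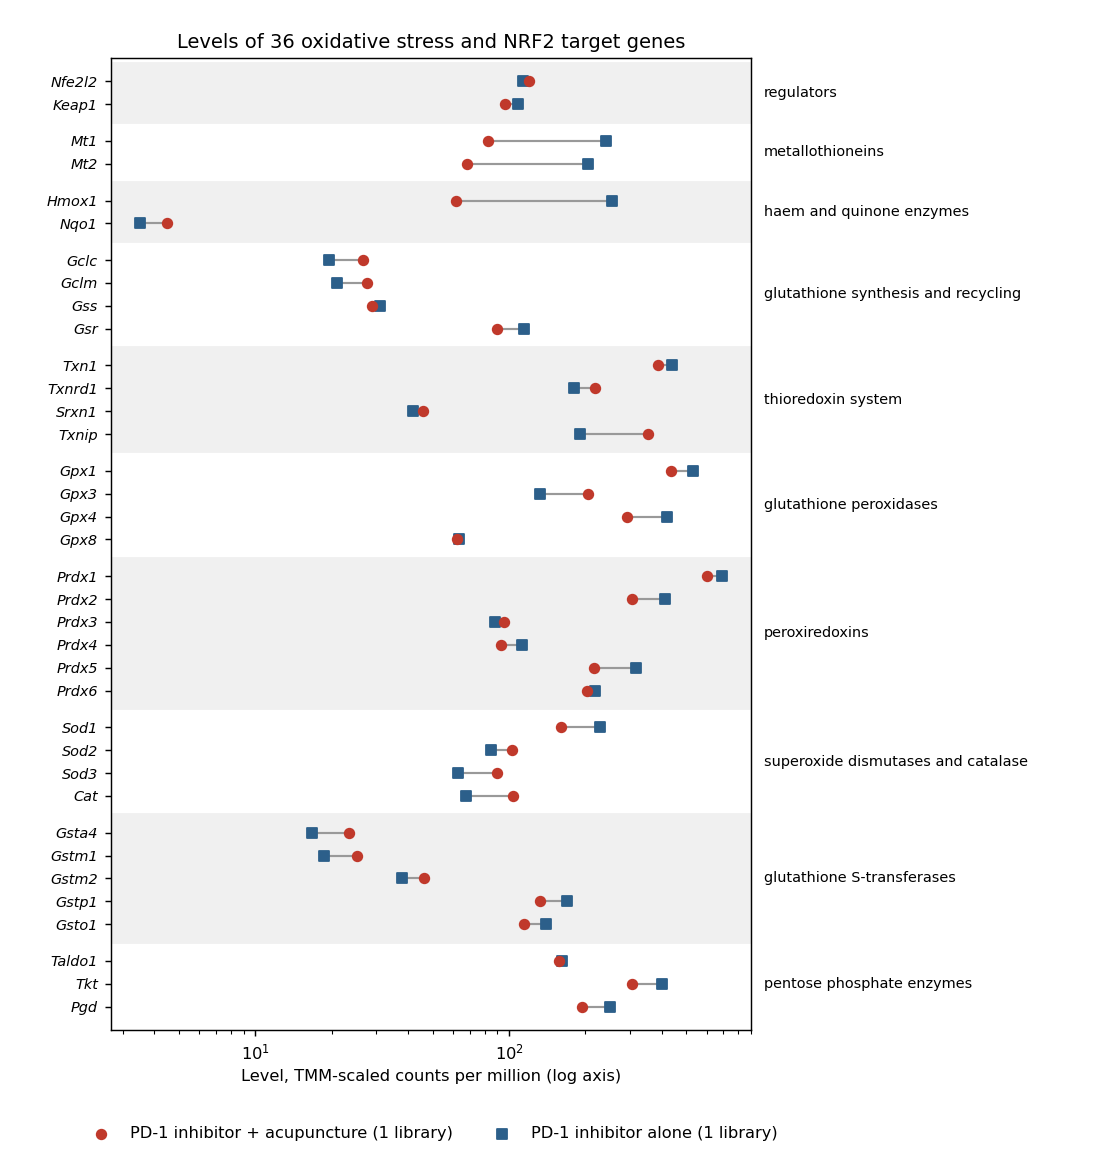
Level of each of the 36 members in TMM-scaled CPM (log axis) in the acupuncture library (red circles) and in that of the PD-1 inhibitor alone (blue squares), ordered by role. The widest gaps are those of Hmox1 (61.6 CPM with acupuncture, 254 CPM without), Mt1 (82.8 CPM with, 241 CPM without) and Mt2 (68.5 CPM with, 206 CPM without), while Gpx8 and Taldo1 nearly coincide.

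Both metallothioneins were listed as lower, by folds close to each other. Mt1 had 5211 counts or 82.8 CPM with acupuncture, against 24592 counts or 241 CPM with the PD-1 inhibitor alone, which was 2.91-fold lower (2.82 to 3.0). Mt2 had 4309 counts or 68.5 CPM with acupuncture, against 20985 counts or 206 CPM with the PD-1 inhibitor alone, 3.0-fold lower (2.90 to 3.10). Both proteins buffer zinc and copper and can scavenge radicals. Within each library there were 1.21 reads of Mt1 per read of Mt2 with acupuncture and 1.17 with the PD-1 inhibitor alone. The quotient of these ratios, which does not depend on the scaling between libraries, was 1.03 (normal-approximation interval on the log scale 0.987 to 1.08). Per kilobase of exon, by exon lengths of GENCODE M21, the level of Mt2 held position 11 among the 36 members with acupuncture, at 116 CPM per kb, and position 4 with the PD-1 inhibitor alone, at 350 CPM per kb. An annotated antisense gene covers 432 of the 588 exonic bases of Mt2, and since the strand setting is not given in the sources used here, its reads and those of Mt2 cannot be told apart. No annotated gene overlaps the exons of Mt1, whose ratio was close to that of Mt2.

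The 250 bases before the annotated starts of both genes are shown because both genes were lower and MTF1 acts through short metal response elements near their starts. Capitals mark each match to the core letters TGCNCNC, searched on both strands, and the sequences are RefSeq promoters of build GRCm38.p6, plus strand, at chr8:94172368-94172617 for Mt2 and chr8:94178839-94179088 for Mt1. The counts were made on another assembly, so these positions belong to the sequences only.
Mt2: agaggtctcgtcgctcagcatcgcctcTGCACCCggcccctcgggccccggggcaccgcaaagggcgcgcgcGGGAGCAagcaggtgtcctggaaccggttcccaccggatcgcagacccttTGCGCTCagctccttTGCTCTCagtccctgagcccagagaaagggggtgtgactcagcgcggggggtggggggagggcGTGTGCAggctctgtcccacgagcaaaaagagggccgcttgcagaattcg
Mt1: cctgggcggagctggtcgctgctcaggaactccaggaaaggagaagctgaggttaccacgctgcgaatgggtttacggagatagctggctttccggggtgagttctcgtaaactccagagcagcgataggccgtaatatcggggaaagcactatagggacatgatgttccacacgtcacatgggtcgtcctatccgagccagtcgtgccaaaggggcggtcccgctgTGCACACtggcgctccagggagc
Mt2 held 5 matches, beginning 223, 178, 128, 113 and 50 bases before the start, and 0.344% of the 32851 promoter windows in the table held at least 5. Mt1 held 1 match, beginning 23 bases before the start, and 44.4% of all windows held at least 1. Bases after the annotated start or further upstream were not searched. The match counts therefore describe these windows and do not compare the full promoters of the genes. A match is a string of letters, not a shown binding site.

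Of 9 other genes of metal handling, 7 had enough reads, and none passed the 2-fold limit (median log2 ratio -0.05, beside 0.00 for all genes). Mtf1 itself stood at 24.5 CPM with acupuncture and 23.0 CPM with the PD-1 inhibitor alone, a ratio of 1.07 (1.0 to 1.14). An opposite-strand gene, 1110065P20Rik, overlaps 316 of the 7975 exonic bases of Mtf1 and had 455 counts with acupuncture and 1122 with the PD-1 inhibitor alone, so part of the Mtf1 reads is uncertain. Mt3, the neuronal metallothionein, named after its values were seen, had 16 counts with acupuncture and 27 with the PD-1 inhibitor alone, a ratio of 0.962 (0.484 to 1.85). Lists of conditions known to raise metallothioneins gave mixed values. Of 15 hypoxia genes 11 were lower and none higher (median log2 ratio -1.17), with summed levels of 3024 CPM with acupuncture and 6431 CPM with the PD-1 inhibitor alone. Ndrg1 and Car9, hypoxia markers, were 4.68-fold (4.59 to 4.77) and 4.24-fold (4.08 to 4.42) lower. Of the 11 glucocorticoid response genes other than Mt1 and Mt2, 1 was higher, 1 lower and 9 between (median 0.03). The kinase Pdk4 was 13.4-fold higher (12.01 to 15.04), and the lower gene was Zbtb16, a transcription factor named after its values were seen. The part of hypoxia or glucocorticoids in the metallothionein difference was not tested.

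Hmox1, which opens the haem ring to release iron, carbon monoxide and biliverdin, had the lowest ratio of all members. It had 3877 counts or 61.6 CPM with acupuncture, against 25947 counts or 254 CPM with the PD-1 inhibitor alone, 4.12-fold lower (3.99 to 4.27). Among all 18687 genes tested its log2 ratio of -2.04 was the 198th from the lowest, that of Mt2 (-1.59) the 350th and that of Mt1 (-1.54) the 374th. Nqo1, a quinone reductase that is a standard readout of NRF2, was the least abundant member and stood on the other side of 1, at 282 counts or 4.48 CPM with acupuncture and 357 counts or 3.50 CPM with the PD-1 inhibitor alone, a ratio of 1.28 (1.09 to 1.502). There were 13.7 reads of Hmox1 per read of Nqo1 with acupuncture and 72.7 with the PD-1 inhibitor alone, a quotient of 0.189 (0.161 to 0.222).

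Macrophages are a known source of Hmox1, and in bulk tissue fewer cells of a type and less RNA per cell cannot be told apart. Of 15 macrophage markers 1 was higher, 1 lower and 13 between (median log2 ratio -0.32), with summed levels of 2628 CPM with acupuncture and 3275 CPM with the PD-1 inhibitor alone. The lowest of them was Mertk, a receptor for the uptake of dying cells, at 2.28-fold lower (2.05 to 2.55), and none of the 15 had a log2 ratio as low as that of Hmox1. Among the 15 hypoxia genes given above, 2 had a log2 ratio below that of Hmox1, namely Ndrg1 (-2.23) and Car9 (-2.08). Marco, a scavenger receptor, had 164 counts with acupuncture and 0 with the PD-1 inhibitor alone. Red blood cell genes, a source of haem, had 4 of 10 measured members higher and none lower (median 0.89), with summed levels of 677 CPM with acupuncture and 314 CPM with the PD-1 inhibitor alone. Rhag and Kel had 0 counts in both libraries. Neutrophil markers had 8 of 15 lower and none higher (median -1.52), with summed levels of 37.9 CPM with acupuncture and 233 CPM with the PD-1 inhibitor alone. Stfa2 had 0 counts with acupuncture. The part of these cells, or of hypoxia, in the Hmox1 difference was not tested. Fth1, the heavy chain of ferritin that stores the iron released from haem and an NRF2 target outside the 36 members, was at 1100 CPM with acupuncture and 2452 CPM with the PD-1 inhibitor alone, 2.23-fold lower (2.21 to 2.25).

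**Figure D2:**
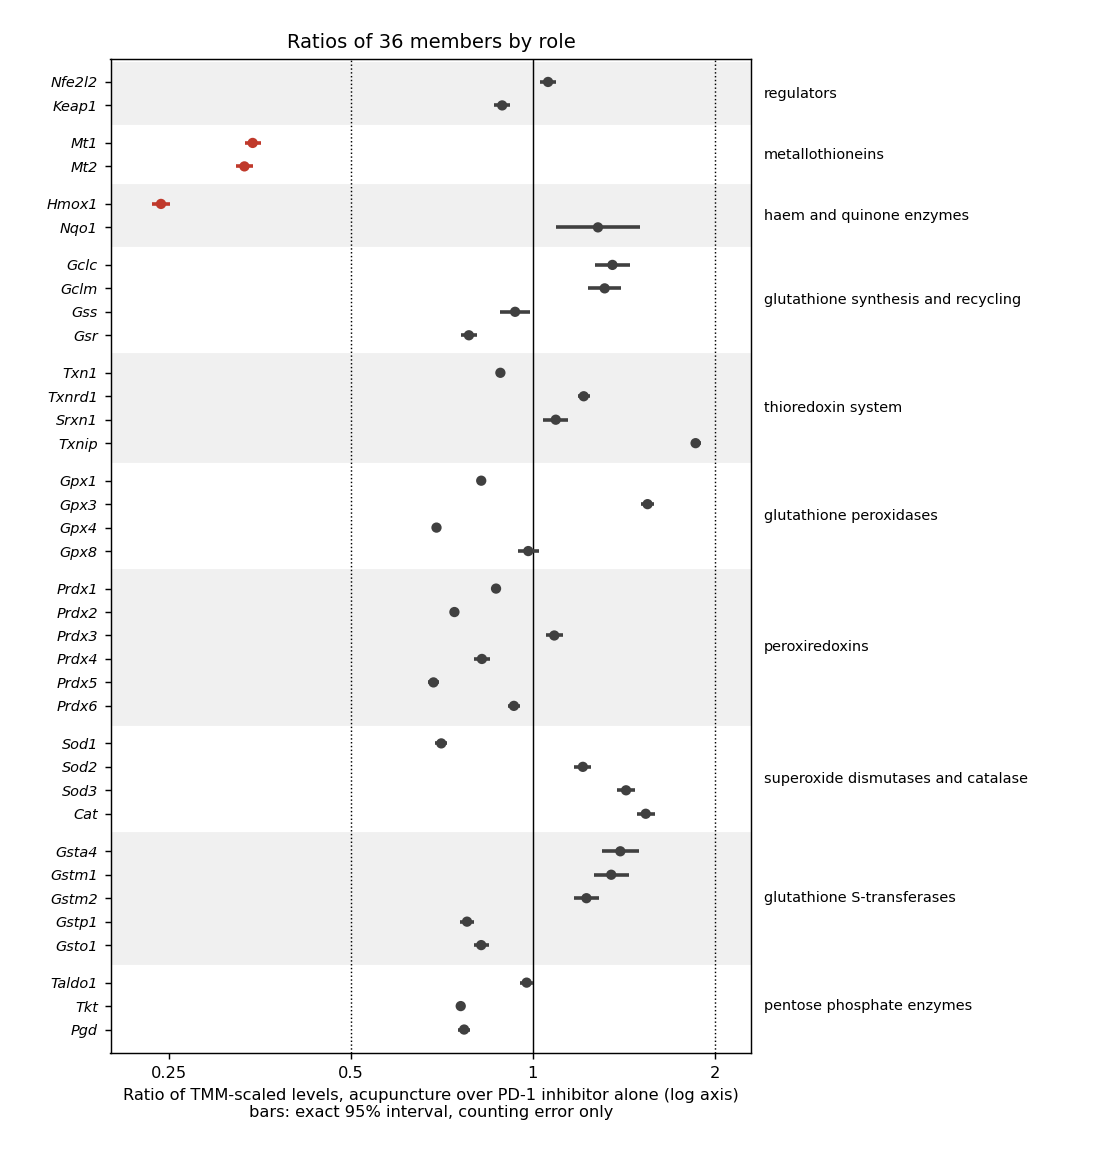
Ratio of each member, acupuncture over PD-1 inhibitor alone, on a log axis with exact 95% intervals for counting error. Dotted lines mark 2-fold either way, and the 3 members listed as lower are in red. Hmox1 (0.242), Mt2 (0.333) and Mt1 (0.344) stand apart from the other 33, which lie between 0.685 and 1.86.

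The regulators themselves differed little. Nfe2l2 was at 120.0 CPM with acupuncture and 113 CPM with the PD-1 inhibitor alone, a ratio of 1.06 (1.03 to 1.09). Keap1, its inhibitor, was at 96.3 CPM with acupuncture and 108 CPM with the PD-1 inhibitor alone, a ratio of 0.890 (0.862 to 0.918) that turned to 1.21 when the libraries were scaled to give the 15 epithelial markers a median log2 ratio of 0. There were 1.247 reads of Nfe2l2 per read of Keap1 with acupuncture and 1.05 with the PD-1 inhibitor alone, a quotient of 1.19 (1.14 to 1.24). Of 11 other genes of the NRF2 complex, its partners and relatives, 1 was lower and none higher (median -0.19). That gene was Nfe2, a relative typical of blood cell precursors and platelets, at 46 counts with acupuncture and 225 with the PD-1 inhibitor alone, 3.01-fold lower (2.19 to 4.24). These are levels of RNA, while NRF2 is controlled mainly through the stability of its protein, which was not measured. An antisense gene covers 510 of the 4499 exonic bases of Keap1, and 3 genes on the opposite strand overlap the 1963 exonic bases of Gss, by 13, 73 and 117 bases, so part of their reads is uncertain.

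Of the 36 members 15 are established NRF2 targets. Of those, Hmox1 was listed as lower, none was listed as higher, and the median log2 ratio of the 14 others was 0.05, with 7 above 0 and 7 below. The targets did not share a direction. Gclc, Gclm, Txnrd1, Srxn1, Gsta4, Gstm1 and Nqo1 had ratios above 1, and Gsr, Txn1, Prdx1, Gstp1, Taldo1, Tkt and Pgd had ratios below 1. The 7 with ratios above 1 stayed above it under each of the 6 scalings tried. Scalings other than TMM raised all ratios or left them nearly unchanged, so these 7 could not have fallen below 1. The other 7 turned above 1 with the epithelial list at a median of 0, and Taldo1 did so also under total count scaling, at 1.05. Of 22 further NRF2 targets outside the members, 1 was higher and 1 lower (median -0.12). The higher was the carboxylesterase Ces2g, at 2.06-fold (1.79 to 2.37), and the lower was Fth1. Of the 22, 9 had log2 ratios above 0 and 13 below. Levels of the 22 summed to 3270 CPM with acupuncture and 5583 CPM with the PD-1 inhibitor alone. The ferritin light chain Ftl1, named after its values were seen, had a ratio of 0.573 (0.569 to 0.578).

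RefSeq promoters of build GRCm38.p6 were at hand for 30 of the 36 members, and not for Hmox1, Gclc, Gsr, Prdx6, Sod3 and Gsta4. The antioxidant response element core TGACNNNGC, searched on both strands, occurred in the 250 bases before a start of 6 of these 30 members (20%), beside 11.5% of 27025 gene symbols. Each match is shown in capitals, 5' to 3' along the gene, with up to 20 bases on either side. They are shown because the core holds letters NRF2 is known to bind. Other forms of the element and bases outside these windows were not searched. A member without a match is therefore not shown to lack an element.
Gclm: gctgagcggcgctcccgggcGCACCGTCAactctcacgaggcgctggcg
Txnrd1: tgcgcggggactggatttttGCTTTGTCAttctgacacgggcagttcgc
Nfe2l2: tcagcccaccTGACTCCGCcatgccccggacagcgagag
Prdx1: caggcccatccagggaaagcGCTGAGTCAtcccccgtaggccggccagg
Sod1: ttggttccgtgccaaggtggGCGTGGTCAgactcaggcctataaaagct
Mt2: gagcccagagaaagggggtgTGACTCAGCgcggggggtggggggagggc
The stretches lie at chr3:122245403-122245451 (plus strand), chr10:82859094-82859142 (plus), chr2:75704875-75704913 (minus), chr4:116685446-116685494 (plus), chr16:90220686-90220734 (plus) and chr8:94172519-94172567 (plus). Their ratios ran in that order from 1.31 for Gclm and 1.21 for Txnrd1 through 1.06 for Nfe2l2, 0.869 for Prdx1 and 0.705 for Sod1 to 0.333 for Mt2. The matches of Prdx1 and Mt2 also hold the letters of an AP-1 site, and that of Gclm overlaps 1 match to the metal response element core by 3 bases. No direction was shared by the members with a match, and a match says nothing of binding in this tissue.

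The subunits of glutamate-cysteine ligase, which carries out the rate-limiting step of glutathione synthesis, had ratios close to each other. The catalytic subunit Gclc was at 26.5 CPM with acupuncture and 19.6 CPM with the PD-1 inhibitor alone, a ratio of 1.35 (1.27 to 1.45). The modifier subunit Gclm was at 27.6 CPM with acupuncture and 21.0 CPM with the PD-1 inhibitor alone, 1.31 (1.23 to 1.40). There were 0.961 reads of Gclc per read of Gclm with acupuncture and 0.933 with the PD-1 inhibitor alone, a quotient of 1.03 (0.941 to 1.13). The enzyme of the second step, Gss, had a ratio of 0.935 (0.882 to 0.991), and glutathione reductase, Gsr, which regenerates glutathione with NADPH, had a ratio of 0.784 (0.759 to 0.809). Under total count scaling the ratio of Gss was 1.003. Reads of Gsr per read of Gclc numbered 3.39 with acupuncture and 5.85 with the PD-1 inhibitor alone, a quotient of 0.579 (0.538 to 0.622).

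Txnip, which binds and inhibits thioredoxin and restrains glucose uptake, had the highest ratio of the members. It had 22244 counts or 354 CPM with acupuncture, against 19411 counts or 190 CPM with the PD-1 inhibitor alone, 1.86-fold higher (1.82 to 1.90), short of 2-fold. Under total count scaling it came to 1.99 and with the epithelial list at a median of 0 to 2.54. Per kilobase of exon it held position 10 among the members with acupuncture and position 19 with the PD-1 inhibitor alone. Its partner thioredoxin, Txn1, was at 387 CPM with acupuncture and 438 CPM with the PD-1 inhibitor alone, a ratio of 0.884 (0.870 to 0.898). There were 0.913 reads of Txnip per read of Txn1 with acupuncture and 0.434 with the PD-1 inhibitor alone, a quotient of 2.10 (2.05 to 2.16). Thioredoxin reductase, Txnrd1, had a ratio of 1.21 (1.19 to 1.24), and sulfiredoxin, Srxn1, which rescues overoxidised peroxiredoxins, 1.09 (1.04 to 1.14).

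Txnip is an arrestin-related gene known to be switched on by the glucose-sensing factors MLXIP and MLXIPL. Of 6 measured genes in the list of its arrestin relatives and these factors, 1 was higher and none lower (median 0.04). That gene was Mlxipl, also abundant in fat and liver, at 10.5 CPM with acupuncture and 2.42 CPM with the PD-1 inhibitor alone, 4.35-fold higher (3.75 to 5.05). Mlxip, the more abundant of these factors, was at 65.0 CPM with acupuncture and 66.6 CPM with the PD-1 inhibitor alone, a ratio of 0.975 (0.938 to 1.014). Adipocyte markers had 14 of 15 higher and none lower (median 2.17), with summed levels of 2252 CPM with acupuncture and 628 CPM with the PD-1 inhibitor alone. Skeletal muscle markers had 14 of 15 higher and none lower (median 2.85), with summed levels of 2571 CPM with acupuncture and 396 CPM with the PD-1 inhibitor alone. Their part in the Txnip difference was not tested. An annotated antisense gene covers 606 of the 2827 exonic bases of Txnip and held 20 counts with acupuncture and 48 with the PD-1 inhibitor alone.

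**Figure D3:**
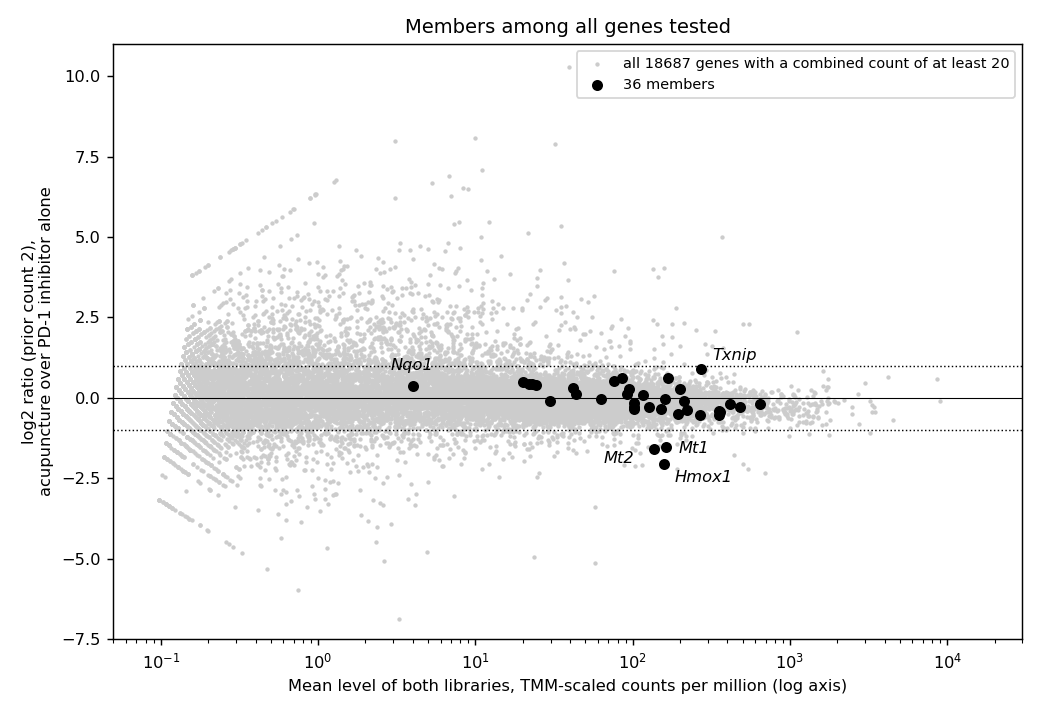
Mean level of both libraries (TMM-scaled CPM, log axis) against log2 ratio, acupuncture over PD-1 inhibitor alone, for 18687 genes (grey) and the 36 members (black). Dotted lines mark 2-fold. Hmox1, Mt1 and Mt2 lie below the lower line among abundant genes, Txnip lies just under the upper line, and no member lies above it.

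The glutathione peroxidases differed among themselves. Gpx3, the form secreted into plasma and made by fat and kidney among other tissues, was at 205 CPM with acupuncture and 132 CPM with the PD-1 inhibitor alone, a ratio of 1.55 (1.51 to 1.59). The cytosolic Gpx1, first among the members per kilobase in both libraries, at 405 CPM per kb with acupuncture and 493 CPM per kb with the PD-1 inhibitor alone, had a ratio of 0.821 (0.810 to 0.834). Gpx4, which reduces lipid hydroperoxides and restrains ferroptosis, was at 291 CPM with acupuncture and 420.0 CPM with the PD-1 inhibitor alone, a ratio of 0.693 (0.681 to 0.705). Gpx8 of the endoplasmic reticulum stood at 0.983 (0.944 to 1.023), an interval that holds 1. Reads of Gpx3 per read of Gpx4 numbered 0.704 with acupuncture and 0.315 with the PD-1 inhibitor alone, a quotient of 2.24 (2.17 to 2.302). All 4 lay between the 2-fold limits, though Gpx3 passed them with the epithelial list at a median of 0 (2.11), where Gpx1 turned to 1.12.

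Of the 6 peroxiredoxins, which reduce hydrogen peroxide through a reactive cysteine, none was listed as higher or lower, and 5 had ratios below 1. Prdx5, found in mitochondria, peroxisomes and cytosol, was lowest at 216 CPM with acupuncture and 316 CPM with the PD-1 inhibitor alone, a ratio of 0.685 (0.671 to 0.699). The cytosolic Prdx2 followed at 0.742 (0.729 to 0.754), then Prdx4 of the secretory pathway at 0.824 (0.798 to 0.850), Prdx1 at 0.869 (0.858 to 0.880) and Prdx6 at 0.930 (0.910 to 0.951). Mitochondrial Prdx3 stood above 1, at 1.09 (1.05 to 1.12). With the epithelial list at a median of 0, Prdx5 alone of the 6 stayed below 1, at 0.934. Opposite-strand genes overlap 409 of 1447 exonic bases of Prdx5 and 154 of 1854 of Prdx2, so part of their reads is uncertain.

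The superoxide dismutases and catalase did not share a direction. Cytosolic Sod1 was at 160.3 CPM with acupuncture and 227 CPM with the PD-1 inhibitor alone, a ratio of 0.705 (0.689 to 0.722). Sod2, the mitochondrial form that inflammatory signals induce, was at 103 CPM with acupuncture and 85.0 CPM with the PD-1 inhibitor alone, 1.21 (1.17 to 1.2497). Sod3, the form secreted into the extracellular matrix, was at 89.5 CPM with acupuncture and 62.8 CPM with the PD-1 inhibitor alone, 1.43 (1.38 to 1.48). Catalase, Cat, the hydrogen peroxide enzyme of peroxisomes, was at 104 CPM with acupuncture and 67.5 CPM with the PD-1 inhibitor alone, 1.54 (1.49 to 1.59). These directions held under each of the 6 scalings. Since scalings other than TMM raised all ratios or left them nearly unchanged, only the direction of Sod1 could have turned. Reads of Sod3 per read of Sod1 numbered 0.558 with acupuncture and 0.276 with the PD-1 inhibitor alone, a quotient of 2.02 (1.94 to 2.11). Those of Cat per read of Gpx1 numbered 0.239 with acupuncture and 0.128 with the PD-1 inhibitor alone, a quotient of 1.87 (1.804 to 1.94). Adipocytes, given above, and fibroblasts are known sources of Gpx3, Sod3 and Cat. Fibroblast markers had 2 of 15 higher and none lower (median 0.19), with summed levels of 11518 CPM with acupuncture and 9265 CPM with the PD-1 inhibitor alone. Their part in these ratios was not tested.

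Among the 5 glutathione S-transferases of the members, which conjugate glutathione to electrophiles, the ones of lower level per kilobase had ratios above 1. Levels per kilobase were not computed for transferases outside the members. Gsta4, active on lipid peroxidation products, had a ratio of 1.40 (1.30 to 1.497), Gstm1 1.35 (1.26 to 1.44) and Gstm2 1.23 (1.17 to 1.29), at 13.6 to 38.8 CPM per kb in the libraries. Gstp1 and Gsto1, at 97.3 to 206 CPM per kb, had ratios of 0.778 (0.758 to 0.799) and 0.821 (0.798 to 0.845), which turned to 1.06 and 1.12 with the epithelial list at a median of 0. Gstp1 has near-identical neighbours, so the split of reads among the copies is uncertain, and the same holds among the Gstm genes. Of 19 other transferases measured, 7 were higher and none lower (median log2 ratio 0.59), beside 9.21% higher and 4.9% lower of all genes. Of the 19, 13 had log2 ratios above 0 and 6 below. Among the 7, Gstt4 had 42 counts with acupuncture and 12 with the PD-1 inhibitor alone, Gsta2 40 and 29, and Gstm6 29 and 20. These genes of few reads were named after their values were seen. Gstt1 was 2.65-fold higher (2.38 to 2.96), at 13.8 CPM with acupuncture and 5.20 CPM with the PD-1 inhibitor alone. Gstp3, one of the Gstp1 neighbours, stood 2.56-fold higher (1.956 to 3.36), from 145 counts with acupuncture and 92 with the PD-1 inhibitor alone. Gstp2, another Gstp gene named after its values were seen, had a ratio of 0.782 (0.710 to 0.859).

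The 3 pentose phosphate enzymes among the members had ratios below 1 and lay between the limits. Pgd, which makes NADPH in the oxidative branch, was at 193 CPM with acupuncture and 251 CPM with the PD-1 inhibitor alone, a ratio of 0.770 (0.753 to 0.786). The enzymes of the non-oxidative branch make no NADPH. Transketolase, Tkt, had a ratio of 0.760 (0.747 to 0.773) and transaldolase, Taldo1, 0.977 (0.953 to 1.001), an interval that holds 1. All 3 turned above 1 with the epithelial list at a median of 0, at 1.05, 1.04 and 1.33. Of 8 other genes of this pathway measured none was listed, and their median was 0.05. Among them G6pdx, which makes NADPH in the first step of the pathway, was at 97.5 CPM with acupuncture and 96.8 CPM with the PD-1 inhibitor alone, a ratio of 1.007 (0.975 to 1.04).

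**Figure D4:**
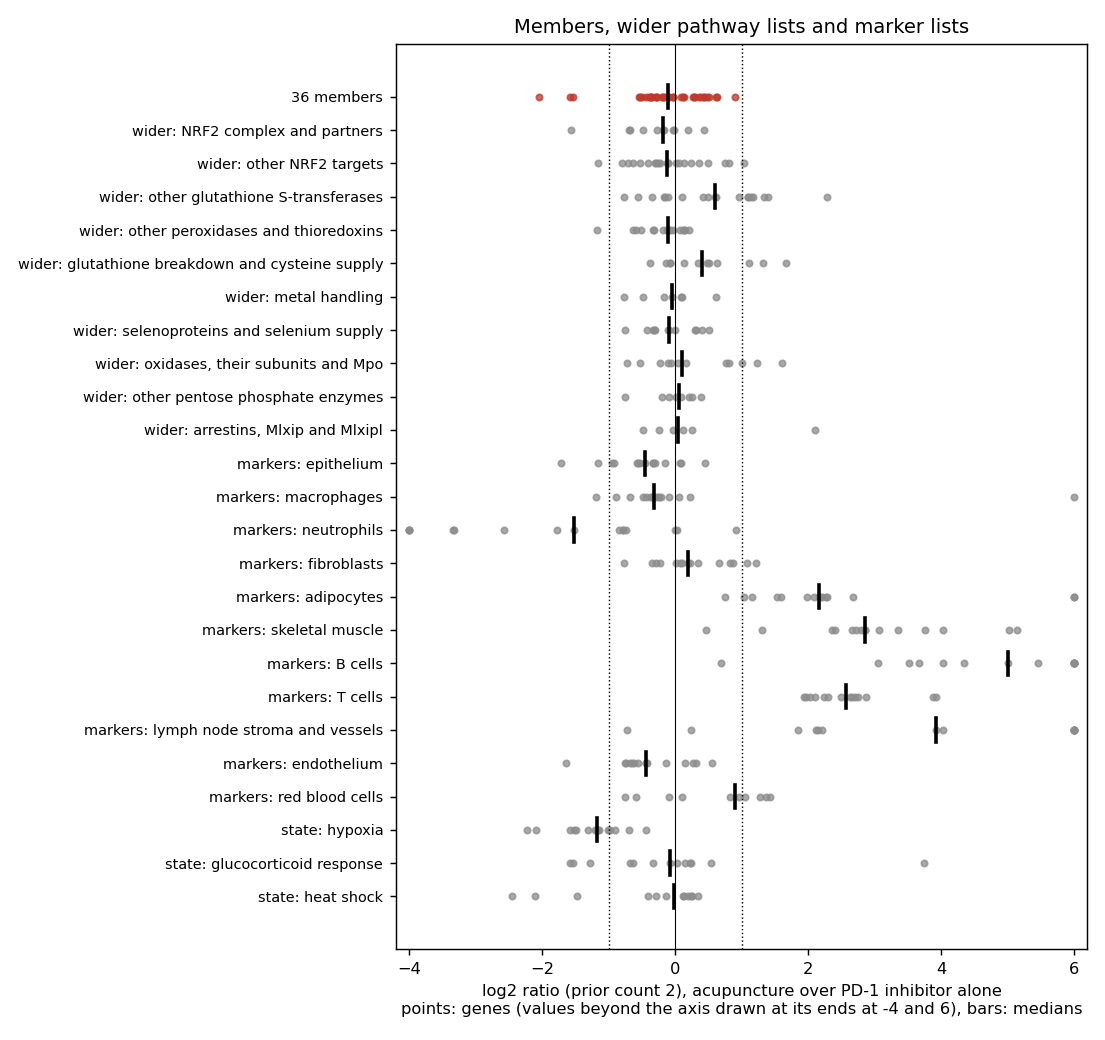
Log2 ratios, acupuncture over PD-1 inhibitor alone, of the 36 members (red), of 10 wider pathway lists and of 14 lists of cell and state markers (grey), with each median as a black bar; 16 values beyond the axis are drawn at its ends. The members' median of -0.10 lies near 0, beside -1.17 for hypoxia, 2.17 for adipocytes and 5.0 for B cells.

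Over the 10 wider lists of the pathway, 126 of 136 genes had enough reads. Of these, 15 were higher and 3 lower (median log2 ratio -0.04), beside 9.21% higher, 4.9% lower and a median of 0.00 for all genes. The 3 lower were Fth1, Nfe2 and Sesn3, a stress-responsive regulator of nutrient signalling, which was 2.25-fold lower (2.12 to 2.39) at 21.9 CPM with acupuncture and 49.2 CPM with the PD-1 inhibitor alone. Of the 15 higher, 7 were glutathione S-transferases. Markers of other cells stood as follows. Epithelium had 2 of 15 lower and none higher (median -0.45). Endothelium had 1 of 15 lower and none higher (median -0.44, summed 411 CPM with acupuncture and 516 CPM with the PD-1 inhibitor alone). T cell markers had 14 of 14 higher (median 2.57, summed 183 CPM with acupuncture and 32.8 CPM without). B cell markers had 12 of 13 higher (median 5.0, summed 185 CPM with acupuncture and 22.6 CPM without, Fcmr at 0 counts with the PD-1 inhibitor alone). Lymph node genes had 11 of 13 higher (median 3.93, summed 668 CPM with acupuncture and 731 CPM without, Chst4 at 0 counts with the PD-1 inhibitor alone). Clu, at 426 CPM with acupuncture and 701 CPM with the PD-1 inhibitor alone, carries that sum, and the 12 others summed to 241 CPM with acupuncture and 30.1 CPM with the PD-1 inhibitor alone. The part of these cells in the members' ratios was not tested.

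**Figure D5:**
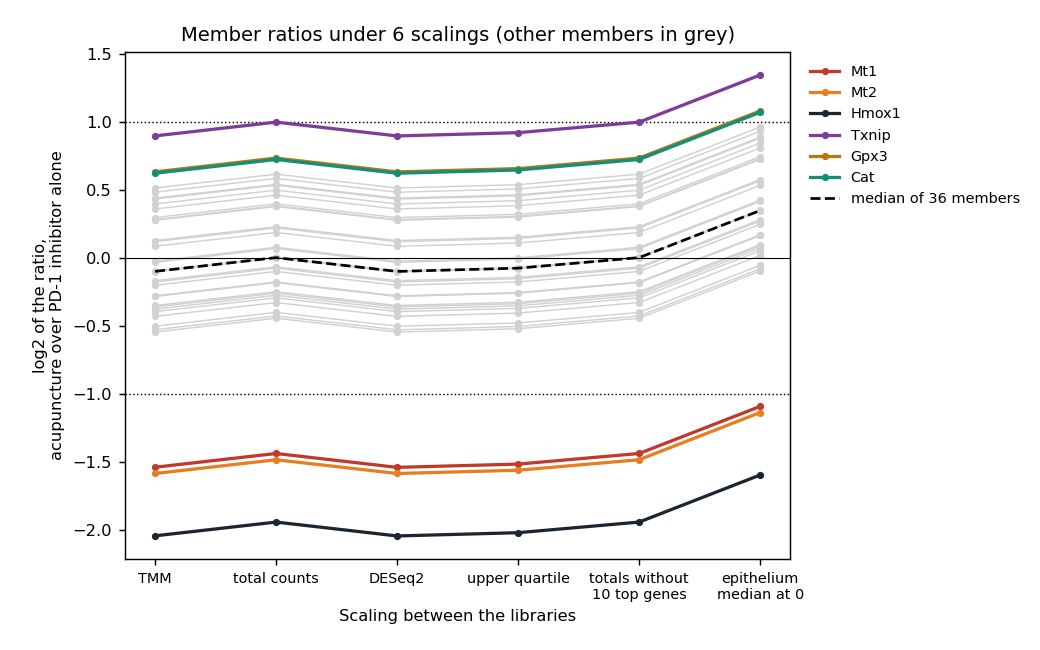
Log2 of each member's ratio, acupuncture over PD-1 inhibitor alone, under 6 scalings between the libraries. All lines shift together, Hmox1, Mt1 and Mt2 stay below -1 under each scaling, and Txnip, Gpx3 and Cat pass 1 only with the epithelial list at a median of 0.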

How the data were processed

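Tumour tissue from 1 library per group was used. RNA isolation used an RNeasy kit and library construction a SMARTER kit for messenger RNA, per the labels. The file the authors deposited holds unnormalized counts, whole numbers of reads for each gene symbol. The submitters' processing notes name genome builds GRCm 39 and mm 39; aligner, counting program and strand: not given in the sources used here.

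TMM factors (edgeR 4.0.16, R 4.3.3) scaled the library totals, computed over genes with at least 20 reads in both libraries together: 1.04 for acupuncture and 0.966 for the PD-1 inhibitor alone. Clopper-Pearson 95% intervals of a ratio treat the reads of a gene as split binomially between the libraries. Log2 ratios carry a prior count of 2. Without molecular identifiers, reads are not independent molecules, and intervals cover counting error only. With no replicates no test was possible and no p-value was computed. The members and all lists were chosen with earlier results of these data known. Named genes are all members and, per other list, up to 2 listed genes in each direction with at least 100 reads, plus the most abundant marker and Mtf1. The most abundant markers and some listed markers are not all printed. Exon lengths and overlaps came from GENCODE M21 and promoters from RefSeq, both of an older build than the counts. Other scalings, among them DESeq2 1.42.0 size factors, other prior counts, minimums and fold limits were tried. The calculation was tested on simulated data that held counting error only, as the intervals assume. That test says nothing of spread between animals or libraries. Other software was matplotlib 3.10.9, scipy 1.17.1, pandas 2.3.3, numpy 2.4.6 and Python 3.11.15.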

Additional observations from a re-analysis of the deposited data

How the results depend on the processing

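Hmox1, Mt1 and Mt2 were the members listed as lower under TMM, total count, DESeq2, upper quartile and epithelial scaling, under totals without the 10 most abundant genes, with minimums of 1 and 100 reads, with a 1.5-fold limit and without the interval. A 4-fold limit left 1, Hmox1. No member was listed as higher, except that 3 were with a 1.5-fold limit and 3 with the epithelial list at a median of 0, in both cases Txnip, Gpx3 and Cat. Of all genes, 14.3% were higher and 10.3% lower with the 1.5-fold limit. With the epithelial scaling 16.6% of all genes were higher and 2.24% lower, and with the 4-fold limit 3.63% and 1.40%. The epithelial scaling raised every log2 ratio by 0.45 and total counts raised it by 0.10. The members' median log2 ratio of -0.10 became 0.35 with the epithelial scaling and 0.00 with total counts, and was -0.24 for summed counts. The median of all genes moved along, to 0.45 with the epithelial scaling and 0.10 with total counts, so the members stayed below it. Of the 36 members, 15 stayed above 1 and 6 below 1 under all 6 scalings, and 15 changed side. Scalings other than TMM raised all ratios or left them nearly unchanged, so only members below 1 under TMM could change side. The members' share of counts without the 10 most abundant genes was 0.605% with acupuncture and 0.667% with the PD-1 inhibitor alone. No paired analysis was possible because each group has 1 library, and none could be left out.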

Other observations

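Genes that make oxidants were measured beside the defences. Of 12 such genes with enough reads, namely oxidases, their subunits and the peroxidase Mpo, 3 were higher and none lower (median log2 ratio 0.10). For this list and those below, the shares over all genes were 9.21% higher and 4.9% lower. Duox2, a hydrogen peroxide-making oxidase of epithelia, was 3.11-fold higher (2.36 to 4.11) at 157 counts with acupuncture and 82 with the PD-1 inhibitor alone. Nox4, found in fibroblasts and vessels among other cells, was 2.36-fold higher (2.10 to 2.67) at 682 counts with acupuncture and 468 with the PD-1 inhibitor alone. Of 12 genes of glutathione breakdown and cysteine supply, 3 were higher and none lower (median 0.41). Chac1, which degrades glutathione and is induced by amino acid stress, was 2.51-fold higher (2.29 to 2.75), and Oplah, which recycles 5-oxoproline, was 2.15-fold higher (1.97 to 2.35). The remaining genes listed as higher were Duox1 among the oxidases and Ggt6 in glutathione breakdown, both named after their values were seen. Ggt6 had few reads, 21 counts with acupuncture and 9 with the PD-1 inhibitor alone. Of 12 selenoprotein and selenium supply genes none was listed (median -0.10).

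Of 12 heat shock genes 3 were lower and none higher (median -0.01). Hspa1a was at 7.63 CPM with acupuncture and 41.8 CPM with the PD-1 inhibitor alone. Hspa1b stood at 33.4 CPM with acupuncture and 143 CPM with the PD-1 inhibitor alone. The third was the small heat shock gene Hspb1, also named after its values were seen. Hspa1a and Hspa1b are near-identical copies, so the split of reads between them is uncertain.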
